A study of Mus musculus with 6 samples.

Results

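The ephrin, semaphorin, netrin and Slit guidance genes were followed in fetal bile duct cells of the mouse between 2 stages of gestation. The set held every protein-coding gene in the table whose symbol names an Eph receptor, an ephrin, a semaphorin of classes 3 to 7, a plexin, a neuropilin, a netrin, a Slit or a Robo, which gave 63 of 52550 genes. By role these were 14 Eph receptors, 8 ephrins, 20 semaphorins, 11 plexins and neuropilins, 3 netrins and 7 Slits and Robos. The cells came from CD-1 embryos carrying the Sox9-GFP transgene, in which GFP marks cells that express SOX9, a transcription factor of the biliary lineage. Livers of the first group were taken at E16.5 and those of the second at E18.5 (the sample labels give embryonic days 16 and 18), and both groups had the same strain and transgene and differed by the labels in stage alone. Each stage had 3 libraries, lettered A, B and C, each made from a pool of 15 livers from which hematopoietic cells had been depleted before GFP+ cells were sorted. A library is therefore an average over many embryos, its GFP+ fraction holds any cell that passed the gate, and the p-values given here measure the spread between these pools.

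Guidance proteins were first studied as cues that steer axons, and the same families set boundaries between cells, shape vessels and act in branching epithelia. Ephrins sit on the cell surface and bind Eph receptor tyrosine kinases on a neighbouring cell, with signals in both cells. Semaphorins act through plexins, helped for most secreted class 3 members by neuropilins, while netrins bind DCC, neogenin and UNC5 receptors and Slits bind Robo receptors.

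Values are in TPM, transcript abundances corrected for gene length and scaled to the same total in every library, so levels can be compared between genes. Recovered reads per library ranged from 23193537 to 26206374 at E16.5 and from 13093937 to 22643868 at E18.5, so every E18.5 library was shallower than every E16.5 library. The sorted cells carried biliary markers at both stages (Sox9, Krt19, Epcam and Spp1 were detected in all 6 libraries). The summed level of 11 cholangiocyte markers ranged from 751 to 2494 TPM at E16.5 and from 8011 to 13818 TPM at E18.5. Of these markers, 8 were called higher and 3 were not called. Other lists moved too. The sum of megakaryocyte markers was between 2852 and 8434 TPM in the E16.5 libraries and between 72.5 and 663 TPM in the E18.5 libraries, with all 9 called lower. Mesothelial markers summed to 2.15 to 8.88 TPM and then to 34.3 to 80.1 TPM, with all 5 called higher. Hepatoblast markers summed to 177725 to 226806 TPM and then to 41353 to 102501 TPM, with 5 of 10 called lower. In bulk libraries fewer cells of a type and less RNA per cell cannot be told apart, and the part of these other cells in the values that follow was not tested unless a value is given.

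More guidance genes were higher than lower at E18.5. Of the 63 genes, 53 reached a mean of 1 TPM over the 6 libraries and were tested with limma on log2(TPM + 1), and p-values were adjusted by Benjamini-Hochberg over the 22452 genes tested in the whole table. At an adjusted p under 0.05, 22 rose, 6 fell and 25 were not called. Over all genes tested, 31.2% were called, 26.0% as higher and 5.22% as lower. Of the tested guidance genes 41.5% were higher and 11.3% lower, both above these backgrounds. The genes tested were not limited to protein-coding genes, as the members are. With TPM rescaled over protein-coding genes without haemoglobin, 29 of 55 guidance genes were called higher, beside 6501 of 14360 genes. In that setting 6 members were called lower, beside 978 genes, and the median log2 fold changes were 0.74 and 0.49. The median log2 fold change of the 53 genes was 0.63, against 0.42 for all genes tested, and the members ranged from -2.18 to 1.91. The 2 stages did not overlap for 28 genes higher at E18.5 and 6 lower, beside 45.0% and 8.30% of all genes tested. On the log2(TPM + 1) scale the change of genes with few TPM is understated.

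The count of risers depended on scaling and on single libraries. The median of all genes tested was itself above 0 with the deposited TPM, and after median-of-ratios scaling it was 0.0039. After that scaling 6 of the 53 guidance genes were called higher and 6 lower, beside 6.49% and 10.6% of all genes, so the share of fallers was then close to its background. All 12 were among the original 28 calls, and the median of the members was 0.27. With the deposited values, 83.3% of all calls were higher, and 38.0% after the scaling. Without E18.5 replicate A or without E18.5 replicate B, 7 guidance genes were called higher and 3 lower. Leaving out another single library gave 13 to 20 higher and 1 to 6 lower, the lowest count of fallers being that without E16.5 replicate A.

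**Figure D1:**
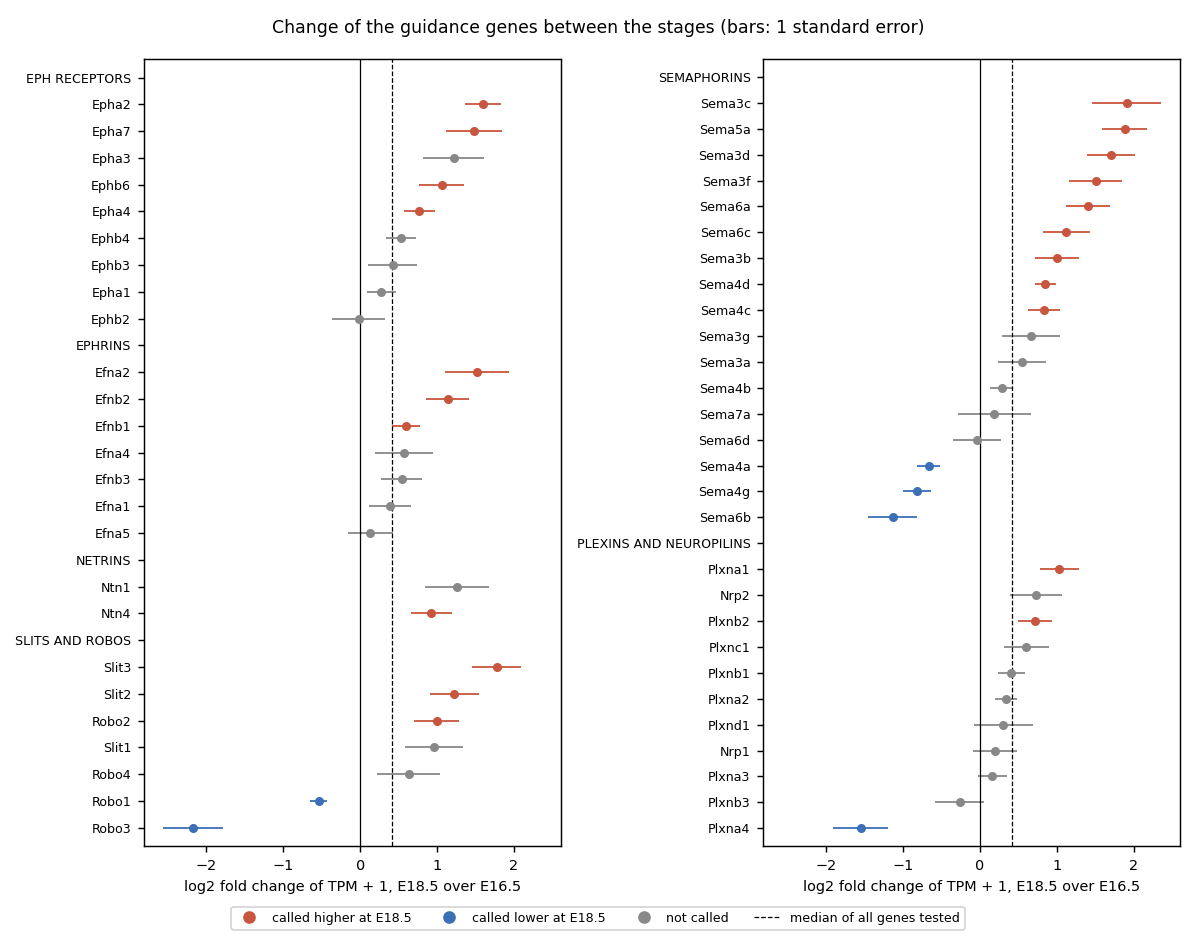
Log2 fold change of TPM + 1 (E18.5 over E16.5) of the 53 tested guidance genes, by role, with bars of 1 standard error. Red points are the 22 called higher, blue points the 6 called lower and grey points the 25 not called, and the dashed line is the median of all genes tested, 0.42; the called points run from Robo3 at -2.18 to Sema3c at 1.91.

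In all, 6 genes kept their call and direction under every alternative in which they could be fitted, namely the 5 risers Epha2, Sema3d, Sema4d, Sema5a and Slit3 and the faller Robo3. Epha2 (ENSMUSG00000006445.3) lies at chr4:141301240-141329384 on the plus strand of GRCm38, Sema3d (ENSMUSG00000040254.11) at chr5:12383385-12588948 and Sema5a (ENSMUSG00000022231.9) at chr15:32244810-32696341, both also on the plus strand. Robo3 (ENSMUSG00000032128.15) lies at chr9:37415669-37433246 on the minus strand, 553 bases from Robo4, which is read in the opposite direction. Promoter sequence from RefSeq (GRCm38.p6) is shown for the 4 of these 6 genes with at least 100 bases before the annotated gene start, since they are the guidance genes whose change was least dependent on the processing. Each sequence runs 5′ to 3′ on the strand of the gene and ends before both its RefSeq and its GENCODE start, directly before the GENCODE start for Sema5a and Robo3, 19 bases before it for Epha2 and 219 for Sema3d. Capitals mark matches to 6 patterns, as spelled or as their reverse complement on the opposite strand, 2 for SOX factors (ACAATG and ACAAAG, which share their first 4 letters), 1 for TEAD factors (GGAATG), 1 for RBPJ, the transcription factor of Notch signaling (TGGGAA), 1 for GATA factors (AGATAA) and 1 for ETS factors (CCGGAAG).
Epha2, chr4:141300971-141301220, plus strand: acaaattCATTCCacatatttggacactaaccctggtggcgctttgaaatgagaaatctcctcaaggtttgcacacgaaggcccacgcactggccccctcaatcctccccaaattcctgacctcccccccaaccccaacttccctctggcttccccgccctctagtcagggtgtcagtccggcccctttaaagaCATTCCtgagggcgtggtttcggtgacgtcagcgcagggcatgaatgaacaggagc
Sema3d, chr5:12382916-12383165, plus strand: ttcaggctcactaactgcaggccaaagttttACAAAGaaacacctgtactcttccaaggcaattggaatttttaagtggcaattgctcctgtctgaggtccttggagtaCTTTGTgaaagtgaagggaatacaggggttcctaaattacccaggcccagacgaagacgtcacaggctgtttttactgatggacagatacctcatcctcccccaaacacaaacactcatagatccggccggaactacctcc
Sema5a, chr15:32244563-32244809, plus strand: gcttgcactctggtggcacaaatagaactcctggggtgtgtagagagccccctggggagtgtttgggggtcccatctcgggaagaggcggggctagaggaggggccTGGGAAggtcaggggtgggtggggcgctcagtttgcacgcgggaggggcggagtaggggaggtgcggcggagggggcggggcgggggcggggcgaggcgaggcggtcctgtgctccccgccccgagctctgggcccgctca
Robo3, chr9:37433247-37433425, minus strand: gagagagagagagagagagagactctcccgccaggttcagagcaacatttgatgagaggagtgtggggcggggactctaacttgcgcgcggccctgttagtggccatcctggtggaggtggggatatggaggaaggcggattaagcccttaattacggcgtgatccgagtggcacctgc

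In these windows Epha2 had 2 matches to the TEAD pattern, Sema3d 2 to the SOX pattern ACAAAG and Sema5a 1 to the RBPJ pattern, while none of the 6 patterns stood in the Robo3 window. Over the 250 bases before the RefSeq start of the 45 tested guidance genes with a window, the RBPJ pattern stood in 8, beside 20.8% of 10875 windows of protein-coding genes tested. The TEAD pattern stood in 6 of 45, beside 10.8% of all windows, and the SOX patterns ACAAAG and ACAATG in 5 and 4, beside 12.4% and 5.89%. The ETS and GATA patterns each stood in 2 of 45, beside 13.1% and 6.40%. The median GC content of the guidance genes' windows was 65.2%, beside 59.6% for all. A match describes the letters and not binding of a factor.

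Among the Eph receptors, 9 of 14 were tested, and 4 rose (Epha2, Epha7, Ephb6 and Epha4), none fell and 5 were not called. Risers were 44.4% of those tested, beside 26.0% of all genes tested. After median-of-ratios scaling 1 was called higher, beside 6.49% of all genes. Ephb4, the receptor best known from veins, had the highest level, with 186, 188 and 119.5 TPM in E16.5 replicates A, B and C and 232, 253 and 215 TPM in the E18.5 replicates. Every E18.5 library lay above every E16.5 library, but the log2 fold change of 0.53 (SE 0.19) did not pass (adjusted p = 0.0716, limma). Of 17 alternatives, 2 called Ephb4 higher. These were the replicate block (adjusted p = 0.0387, limma) and rescaling of TPM over protein-coding genes without haemoglobin (adjusted p = 0.033). With median-of-ratios scaling its log2 fold change was 0.066 (adjusted p = 0.751, limma), and with quantile normalization 0.44 (adjusted p = 0.141). Of the summed Eph receptor TPM, Ephb4 alone gave 60.8 to 66.7% in the E16.5 libraries and 54.3 to 62.8% in those of E18.5. Epha1 was listed at 47.0, 44.1 and 51.6 TPM and then at 58.3, 44.5 and 73.3 TPM. The stages overlapped, and its log2 fold change of 0.27 (adjusted p = 0.285, limma) turned to -0.19 with median-of-ratios scaling.

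Epha2, a receptor of epithelial cells that binds ephrin-A ligands, kept its call in all 17 alternatives. It read 9.01, 9.27 and 5.69 TPM at E16.5 and 25.3, 20.8 and 31.9 TPM at E18.5, which put all 3 later libraries more than 10 TPM above the earlier ones. The log2 fold change was 1.59 (SE 0.24, adjusted p = 0.0101, limma) and remained 1.16 after median-of-ratios scaling (adjusted p = 0.0236). Across these alternatives its adjusted p lay between 0.00355 and 0.0435.

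Epha7, another ephrin-A receptor, went from 17.5, 19.5 and 6.80 TPM to 35.5, 46.4 and 36.3 TPM. Its E16.5 replicate C was the lowest of the 6 libraries by a wide margin, and the stages did not overlap. The log2 fold change was 1.48 (SE 0.36, adjusted p = 0.0251, limma), and the call was lost with median-of-ratios scaling (adjusted p = 0.0654) and without E18.5 replicate A or E18.5 replicate B (adjusted p = 0.067 and 0.0743). Ephb6, which lacks kinase activity, went from 6.92, 6.32 and 3.06 TPM to 12.6, 13.3 and 9.92 TPM, a log2 fold change of 1.06 (SE 0.29, adjusted p = 0.0339, limma) that also lost its call with the scaling. Ephb6 was likewise not called without E16.5 replicate B, E18.5 replicate A or E18.5 replicate B (adjusted p = 0.0518, 0.0975 and 0.096). Epha4 rose from 6.53, 7.16 and 4.62 TPM to 10.7, 11.5 and 10.7 TPM, without overlap (log2 fold change 0.77, SE 0.20, adjusted p = 0.0291, limma). Its call was lost with median-of-ratios scaling (adjusted p = 0.15) and without any 1 library other than E16.5 replicate B, and its highest adjusted p over all alternatives was 0.173. Of the receptors not called, Epha3 came closest (log2 fold change 1.22, adjusted p = 0.0539, limma), Ephb3 lay at 0.42 and Ephb2 at -0.018. Epha5, Epha6, Epha8, Epha10 and Ephb1 stayed under 1 TPM in every library. Epha6 had 0 reads in E16.5 replicate C, and 3 reads, the limit that a count of 0 allows, would be worth 0.066 to 0.14 TPM across the 6 libraries.

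The ephrins, the ligands of these receptors, had 7 of 8 genes tested, with 3 higher (Efna2, Efnb1 and Efnb2), none lower and 4 not called. Risers were 42.9% of those tested, beside 26.0% of all genes tested, and none was called after median-of-ratios scaling. Efnb1, a transmembrane ephrin, was listed at 32.4, 29.4 and 20.4 TPM and then at 40.6, 40.6 and 42.3 TPM. The E18.5 libraries were nearly equal to each other and all above E16.5, with a log2 fold change of 0.60 (SE 0.18, adjusted p = 0.0445, limma) that became 0.14 with median-of-ratios scaling and was then not called. Efnb2, the transmembrane ligand of EphB4, went from 12.0, 9.18 and 5.89 TPM to 16.7, 18.6 and 26.9 TPM. Its stages did not overlap, with replicate C the lowest library at E16.5 and the highest at E18.5 (log2 fold change 1.14, SE 0.28, adjusted p = 0.0261, limma). With the scaling Efnb2 was not called, nor was it without E16.5 replicate B, E16.5 replicate C, E18.5 replicate A, E18.5 replicate B or E18.5 replicate C (adjusted p = 0.0541, 0.0545, 0.0597, 0.0619 and 0.0605). Efnb1 lost its call without E16.5 replicate B, E16.5 replicate C, E18.5 replicate A, E18.5 replicate B or E18.5 replicate C (adjusted p = 0.072, 0.0553, 0.109, 0.0977 and 0.0909). The replicate block, voom on recovered reads and quantile normalization also removed it (adjusted p = 0.0539, 0.0788 and 0.242, limma). So did eBayes without a trend and no filter on low values (adjusted p = 0.0689 and 0.0803), and it stood in 6 of 17 alternatives. Efnb2 was called in 9 of 17, and not with the replicate block or quantile normalization (adjusted p = 0.0575 and 0.0923).

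Efna2, anchored in the membrane by a lipid, had the largest change among the ephrins. It went from 5.97, 4.39 and 1.35 TPM to 14.4, 12.6 and 9.01 TPM, with replicate C the lowest library of each stage and no overlap between stages. The order A, B, C in both stages was also that of the neural and glial marker sums. These were 53.0, 51.6 and 17.8 TPM and then 95.0, 82.2 and 79.2 TPM, and the part of such cells in the rise of Efna2 was not tested. The log2 fold change of Efna2 was 1.52 (SE 0.42, adjusted p = 0.0333, limma), and 1.14 with median-of-ratios scaling, where it was not called. Efna2 was also not called without E16.5 replicate B, E18.5 replicate A or E18.5 replicate B (adjusted p = 0.0545, 0.0992 and 0.0887). Efna1 showed no such order, with 24.6, 30.3 and 31.8 TPM at E16.5 and 46.6, 24.3 and 48.0 TPM at E18.5. Its E18.5 replicate B equalled the lowest E16.5 library within 1 TPM, and the log2 fold change of 0.39 (adjusted p = 0.286, limma) changed sign with median-of-ratios scaling. Without that E18.5 library Efna1 was called higher (log2 fold change 0.70, adjusted p = 0.042, limma). Efna4, Efna5 and Efnb3 had log2 fold changes of 0.57, 0.13 and 0.54 and were not called. Efna3 rested on 1 to 10 reads per library, between 0.0804 and 0.515 TPM.

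**Figure D2:**
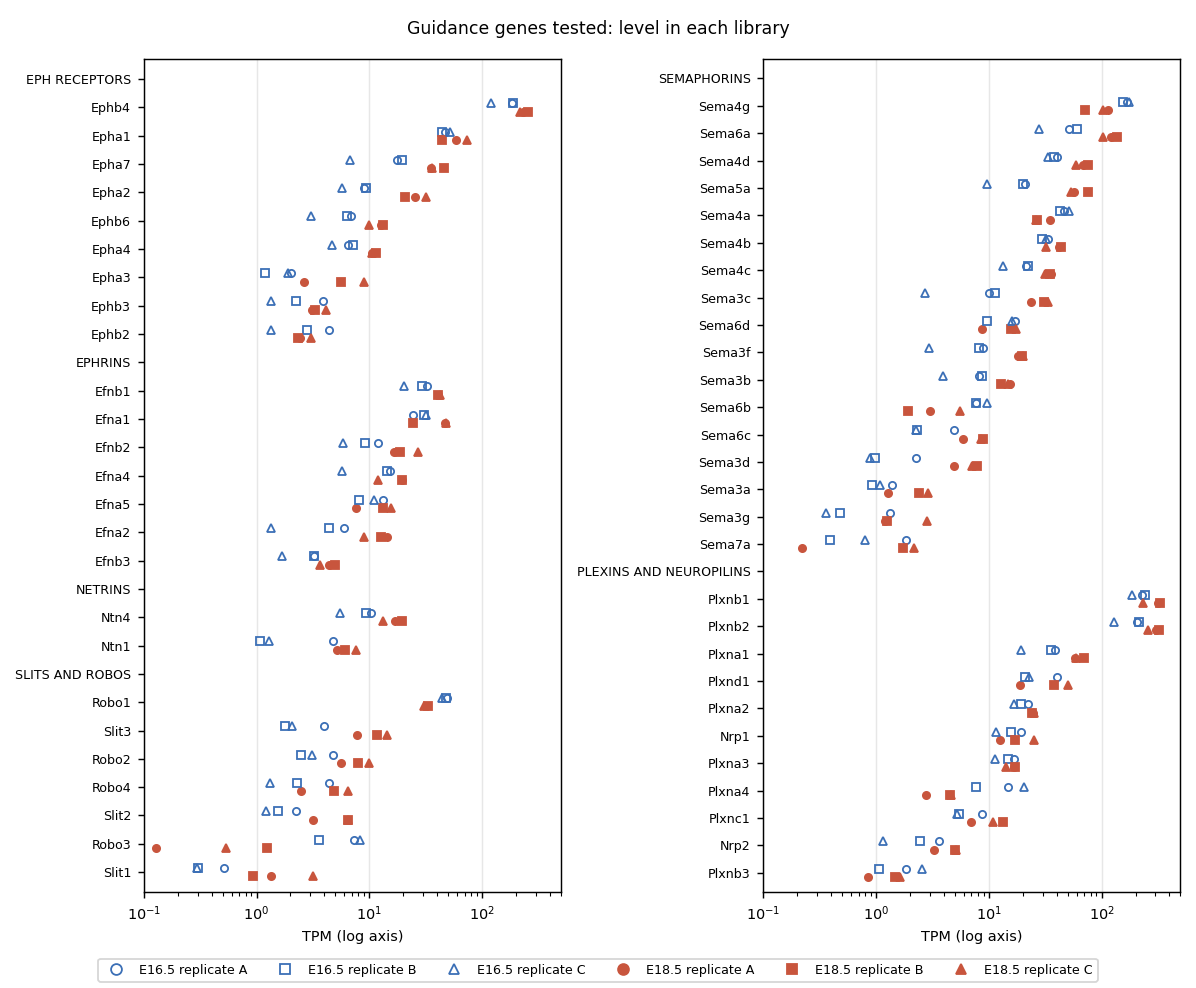
TPM on a log axis of each of the 53 tested guidance genes in each library, by role and mean level, with open blue symbols for E16.5 and filled red symbols for E18.5 (circle, square and triangle for replicates A, B and C). Plxnb1, Plxnb2 and Ephb4 stand at the top of their roles, each above 100 TPM in all 6 libraries, and Robo3 shows the widest gap in the downward direction.

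The semaphorins, the role with the most genes, also had the most called members. Of 17 tested, 9 were higher, 3 lower and 5 not called, and calls went in both directions. Calls made up 70.6% of the tested semaphorins, beside 71.4% of the tested Slits and Robos and 31.2% of all genes tested. After median-of-ratios scaling 4 semaphorins were called higher and 3 lower, beside 6.49% and 10.6% of all genes. All 4 called members of the secreted class 3 rose (Sema3b, Sema3c, Sema3d and Sema3f), as did Sema5a, whereas the membrane-bound classes 4 and 6 held both risers (Sema4c, Sema4d, Sema6a and Sema6c) and fallers (Sema4a, Sema4g and Sema6b).

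Sema4g, a transmembrane semaphorin, was the most abundant ligand of the set at E16.5 and fell. It read 169, 155 and 176 TPM at E16.5 and 114, 71.6 and 102 TPM at E18.5, without overlap, and its share of the summed semaphorin TPM went from 36.9 to 45.6% to 12.6 to 20.4%. The log2 fold change was -0.82 (SE 0.18, adjusted p = 0.0199, limma) and -1.28 with median-of-ratios scaling (adjusted p = 0.0204). Sema4a went from 46.5, 42.4 and 51.9 TPM to 34.9, 26.9 and 26.3 TPM, a log2 fold change of -0.66 (SE 0.15, adjusted p = 0.0218, limma). Sema6b, a ligand of plexin-A receptors, went from 7.71, 7.64 and 9.61 TPM to 3.01, 1.92 and 5.51 TPM (log2 fold change -1.13, SE 0.32, adjusted p = 0.0361, limma). The call of Sema4g was lost without E16.5 replicate A or E16.5 replicate C (adjusted p = 0.0529 and 0.0532), that of Sema4a without E16.5 replicate A, E16.5 replicate C or E18.5 replicate B (adjusted p = 0.0558, 0.0539 and 0.0626), and that of Sema6b without E16.5 replicate A, E16.5 replicate B, E16.5 replicate C, E18.5 replicate A or E18.5 replicate B (adjusted p = 0.0733, 0.0718, 0.101, 0.0972 and 0.0852). For all 3 genes replicate C was the highest E16.5 library and replicate B the lowest, which was also the order of the megakaryocyte marker sums at that stage. At E18.5 those sums stood in the order B, C, A, which none of the 3 genes followed. Sema4g stood at A, C, B, Sema4a at A, B, C and Sema6b at C, A, B. Hepatoblast marker sums fell too. In the earlier stage they ran C, B, A (226806, 186751 and 177725 TPM), highest in C like the 3 genes but lowest in A. In the later stage they ran C, A, B (102501, 85222 and 41353 TPM). Sema6b had that order, Sema4g shared only the lowest library, and Sema4a shared no position. The part of either cell type in these falls was not tested.

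The risers of classes 4 and 6 included the well-studied plexin-B1 ligand Sema4d, with 40.2, 37.9 and 33.3 TPM at E16.5 and 69.1, 76.2 and 59.1 TPM at E18.5. Its libraries were close to each other within a stage, and a log2 fold change of 0.85 (SE 0.14) gave an adjusted p of 0.0112 (limma). Under the alternatives the change ranged from 0.40 to 0.95 and the adjusted p never exceeded 0.0477. Sema6a, a transmembrane ligand of plexin-A receptors, went from 51.1, 61.1 and 27.8 TPM to 121, 136 and 104 TPM. Each E18.5 library was above 100 TPM and each E16.5 library well under it (log2 fold change 1.41, SE 0.28, adjusted p = 0.0157, limma). With median-of-ratios scaling it was 0.95 (adjusted p = 0.0362), and of all alternatives the call was lost only without E18.5 replicate A (adjusted p = 0.0567). The libraries of Sema6a ran B, A, C from high to low in both stages, as did those of Epha4, Ephb4, Plxnb1 and Plxnb2. Cholangiocyte marker sums had this order too (2494, 1976 and 751 TPM, then 13818, 11641 and 8011 TPM). It held for 8 of 22 risers in the earlier stage and 7 in the later. Of all genes called higher, 42.4% and 47.8% had it. The part of cholangiocytes in these levels was not tested.

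Among the tested semaphorins the largest rises on the log2(TPM + 1) scale were in Sema3c, Sema5a and Sema3d. By the ratio of mean TPM, Sema3e was highest (5.53, against 4.81 for Sema3d, 3.70 for Sema5a and 3.65 for Sema3c), but with a mean of 0.945 TPM over the 6 libraries it was not tested. Sema3c, a secreted ligand of neuropilin and plexin complexes, read 10.0, 11.4 and 2.72 TPM at E16.5 and 23.8, 30.6 and 33.8 TPM at E18.5, with replicate C at E16.5 far under the others. Its log2 fold change of 1.91 had the widest error of the 3 genes (SE 0.45, adjusted p = 0.0228, limma), and with median-of-ratios scaling it was not called (adjusted p = 0.0579), nor without E18.5 replicate A, E18.5 replicate B or E18.5 replicate C (adjusted p = 0.0598, 0.0643 and 0.0531). Sema5a is a transmembrane semaphorin with thrombospondin repeats. It went from 20.8, 19.9 and 9.70 TPM to 56.8, 76.3 and 53.7 TPM, so that the lowest E18.5 library was more than 2 times the highest E16.5 library (log2 fold change 1.88, SE 0.30, adjusted p = 0.0106, limma). Sema3d read 2.24, 0.970 and 0.890 TPM and then 4.88, 7.79 and 7.05 TPM. This secreted ligand was among the lower of the risers in level, with 61 to 342 reads per library, and its log2 fold change was 1.70 (SE 0.31, adjusted p = 0.0136, limma). Its libraries stood in the order A, B, C at E16.5 and B, C, A at E18.5. The mesothelial marker sums stood in the same order, at 8.88, 2.74 and 2.15 TPM and then 34.3, 80.1 and 78.0 TPM. The part of mesothelial cells in this rise was not tested.

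The remaining 4 risers, Sema3b, Sema3f, Sema4c and Sema6c, had log2 fold changes of 1.01, 1.51, 0.83 and 1.12 and none kept its call after median-of-ratios scaling. Sema3a, Sema3g, Sema4b, Sema6d and Sema7a lay between -0.036 and 0.67 and were not called. Sema3e, which binds plexin D1 without a neuropilin, had a mean just under 1 TPM and was not tested. It was listed at 0.540, 0.179 and 0.149 TPM and then at 1.59, 1.33 and 1.88 TPM, with every E18.5 library above E16.5. Sema5b stayed between 0.453 and 1.39 TPM and Sema4f between 0.0276 and 0.185 TPM.

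**Figure D3:**
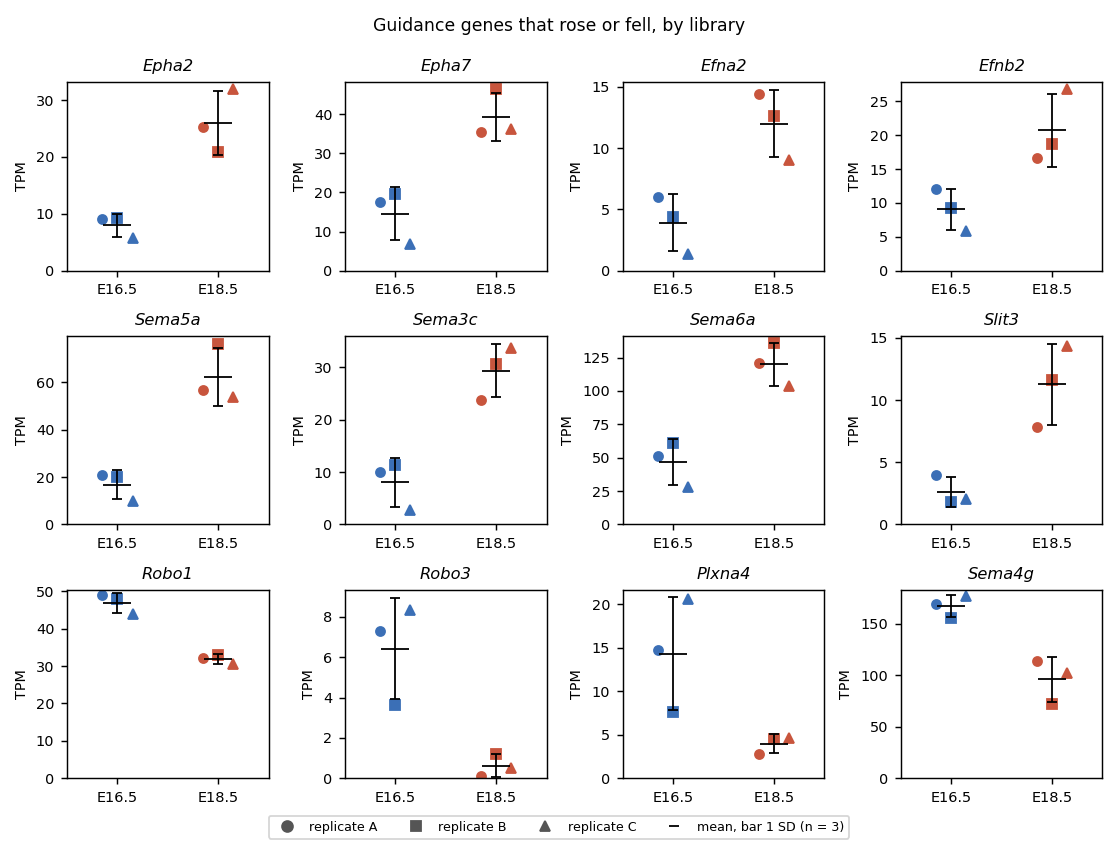
TPM in each library of 12 guidance genes, 8 that rose and 4 that fell, with symbols for replicates A, B and C, a horizontal mark for the stage mean and a bar of 1 SD (n = 3); each vertical axis starts at 0. The stages do not overlap in any panel, and E16.5 replicate C is the lowest library of that stage for 7 of the 8 risers shown, the exception being Slit3.

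Of the 11 plexins and neuropilins, the receptors of semaphorins, all were tested, and 2 rose (Plxna1 and Plxnb2), 1 fell (Plxna4) and 8 were not called. Risers were 18.2% and fallers 9.09% of the role, beside 26.0% and 5.22% of all genes tested. Plxnb1, the receptor of Sema4d, was the most abundant gene of the whole set, with 231, 243 and 185 TPM at E16.5 and 319, 329 and 233 TPM at E18.5. The stages overlapped in replicate C at E18.5, and the log2 fold change of 0.41 (SE 0.18, adjusted p = 0.111, limma) became -0.054 with median-of-ratios scaling. Plxnb1 was called higher without E18.5 replicate C (log2 fold change 0.57, adjusted p = 0.0445, limma), with the replicate block (adjusted p = 0.0253) and when TPM were rescaled over protein-coding genes without haemoglobin (adjusted p = 0.0495). Plxnb2, a second receptor of class 4 semaphorins, went from 206, 216 and 128 TPM to 306, 325 and 258 TPM. This was a log2 fold change of 0.72 (SE 0.21, adjusted p = 0.0428, limma), and of 0.25 after scaling, where it was not called. Plxnb2 also lost its call without E16.5 replicate A, E16.5 replicate C, E18.5 replicate A, E18.5 replicate B or E18.5 replicate C (adjusted p = 0.0625, 0.0583, 0.112, 0.11 and 0.0535). Together Plxnb1, Plxnb2 and Ephb4 held 37.5 to 44.5% of the summed TPM of all 63 genes in the E16.5 libraries and 38.0 to 44.4% in those of E18.5.

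The plexin-A genes held a riser and a faller. Plxna1, a signalling partner of neuropilins, went from 38.3, 35.8 and 19.1 TPM to 58.3, 69.3 and 59.4 TPM, with no overlap (log2 fold change 1.04, SE 0.26, adjusted p = 0.0263, limma). With median-of-ratios scaling it was 0.58 and not called, and 10.7% of its exon bases are overlapped by an annotated gene on the opposite strand. Plxna4, another receptor of this class, fell from 14.8, 7.65 and 20.5 TPM to 2.75, 4.54 and 4.64 TPM. The E16.5 libraries stood in the order C, A, B, like the megakaryocyte marker sums, and the lowest of them was still above every E18.5 library. At E18.5 the order was C, B, A, against B, C, A for those sums. Hepatoblast marker sums were highest in C in both stages, like Plxna4, but lowest in A and then in B. The part of either cell type in this fall was not tested. The log2 fold change of Plxna4 was -1.55 (SE 0.36, adjusted p = 0.0225, limma), and -1.95 with median-of-ratios scaling (adjusted p = 0.0264). The call was lost without E16.5 replicate A, E16.5 replicate C, E18.5 replicate A or E18.5 replicate B (adjusted p = 0.0594, 0.0552, 0.072 and 0.0534), and that of Plxna1 without E18.5 replicate A, E18.5 replicate B or E18.5 replicate C (adjusted p = 0.0706, 0.0761 and 0.0509). After the scaling the median of the role was -0.11, against 0.34 before. Neither neuropilin was called, Nrp1 at a log2 fold change of 0.20 and Nrp2 at 0.73. The other 5 plexins (Plxna2, Plxna3, Plxnb3, Plxnc1 and Plxnd1) lay between -0.26 and 0.61, and Plxnd1, a plexin known from endothelium, ranged from 19.1 to 50.2 TPM.

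Of the 3 netrins, 2 were tested and 1 was called, beside 31.2% of all genes tested. Ntn4, a netrin that binds laminin in basement membranes, rose from 10.4, 9.32 and 5.46 TPM to 17.0, 19.6 and 13.2 TPM (log2 fold change 0.93, SE 0.26, adjusted p = 0.0372, limma). Ntn4 was not called with median-of-ratios scaling or without E16.5 replicate B, E16.5 replicate C, E18.5 replicate A or E18.5 replicate B (adjusted p = 0.0609, 0.0677, 0.102 and 0.107). Ntn1, the secreted netrin of commissural axon guidance, read 4.72, 1.08 and 1.28 TPM at E16.5 and 5.12, 6.05 and 7.61 TPM at E18.5. Replicate A at E16.5 was within 1 TPM of the lowest E18.5 library while the other E16.5 libraries were near 1 TPM, and the log2 fold change of 1.26 (SE 0.42) did not pass (adjusted p = 0.0562, limma). Without E16.5 replicate A it was 1.72 and called (adjusted p = 0.0294, limma), and Ntn1 was also called with voom on recovered reads (adjusted p = 0.0434), among genes with at least 200 exon bases (adjusted p = 0.0405) and after rescaling over protein-coding genes (adjusted p = 0.024). Ntn5 rested on 1 to 4 reads per library.

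Slits and Robos held calls in both directions. All 7 genes were tested, with Slit2, Slit3 and Robo2 higher, Robo1 and Robo3 lower, and Slit1 and Robo4 not called. Risers were 42.9% and fallers 28.6% of these few genes, beside 26.0% and 5.22% of all genes tested. After median-of-ratios scaling 1 was called higher and 2 lower, beside 6.49% and 10.6% of all genes. Robo1, the main Slit receptor of the set, held 67.8 to 79.9% of the summed Slit and Robo TPM in the E16.5 libraries and 42.6 to 61.1% in those of E18.5. It fell from 48.8, 47.8 and 43.8 TPM to 32.2, 33.0 and 30.4 TPM, with little spread within either stage. A log2 fold change of -0.54 (SE 0.11) gave an adjusted p of 0.0165 (limma), and with median-of-ratios scaling it was -0.99 (adjusted p = 0.00879). Robo1 lost its call without E16.5 replicate A or E18.5 replicate A (adjusted p = 0.0515 and 0.0629). Unlike the other 5 fallers, Robo1 was lowest in replicate C at E16.5.

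Robo3, a receptor best known from commissural axons, had the largest fall. It read 7.31, 3.61 and 8.33 TPM at E16.5 and 0.128, 1.23 and 0.539 TPM at E18.5, from 193 to 455 reads per library at the first stage and 6 to 43 at the second. Every E18.5 library lay under the lowest E16.5 library, with a log2 fold change of -2.18 (SE 0.39, adjusted p = 0.0133, limma). The megakaryocyte marker sums ordered the libraries in the same way within each stage, highest in C at E16.5 (8434 TPM) and highest in B at E18.5 (663 TPM), and the part of those cells in the fall was not tested. Its neighbour Robo4, known from endothelium, ranged from 1.32 to 6.46 TPM and was not called.

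Slit3, a secreted Robo ligand, showed the largest rise of this role. It went from 3.98, 1.80 and 2.07 TPM to 7.83, 11.6 and 14.3 TPM, with a log2 fold change of 1.77 (SE 0.31, adjusted p = 0.0132, limma) that remained 1.40 after median-of-ratios scaling (adjusted p = 0.0296). Slit2 went from 2.25, 1.55 and 1.21 TPM to 3.15, 6.48 and 6.53 TPM (log2 fold change 1.23, SE 0.32, adjusted p = 0.0305, limma) and Robo2, which also binds Slits, from 4.79, 2.47 and 3.07 TPM to 5.56, 7.98 and 9.97 TPM. The log2 fold change of Robo2 was 0.99 (SE 0.29, adjusted p = 0.0408, limma), and neither it nor Slit2 kept its call after the scaling. Quantile normalization, the replicate block and no filter on low values also removed both calls. With the block the adjusted p was 0.0767 for Robo2 and 0.0618 for Slit2 (limma). Slit2 was also not called without E16.5 replicate B, E16.5 replicate C, E18.5 replicate B or E18.5 replicate C (adjusted p = 0.0706, 0.0808, 0.0921 and 0.0753), and Robo2 without E16.5 replicate B, E16.5 replicate C, E18.5 replicate A, E18.5 replicate B or E18.5 replicate C (adjusted p = 0.104, 0.0993, 0.0612, 0.104 and 0.101). Slit3, Slit2 and Robo2 were all lowest in replicate A at E18.5, as were the mesenchymal (328 TPM in that library), mesothelial (34.3), endothelial (118), erythroid (111), leukocyte (113) and megakaryocyte (72.5) marker sums. At E16.5 Slit3 and Robo2 stood in the order A, C, B and at E18.5 in C, B, A. The mesenchymal sums (343, 175 and 257 TPM, then 328, 537 and 824 TPM) and the endothelial sums stood in these orders too. Slit2 stood in A, B, C and then C, B, A, and the part of these cells in the rises was not tested. Slit1 stood at 0.96 and was not called (adjusted p = 0.0881, limma).

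Summed over subfamilies, the ratio of the stage means was highest for Slits and for class 5 and class 3 semaphorins. Slits together read 6.74, 3.65 and 3.57 TPM at E16.5 and 12.3, 19.0 and 24.0 TPM at E18.5, a ratio of means of 3.97. Class 5 semaphorins, nearly all Sema5a, had a ratio of 3.58. Class 3 semaphorins read 32.6, 30.8 and 12.1 TPM and then 66.3, 75.5 and 83.0 TPM, a ratio of 2.98. After median-of-ratios scaling these 3 ratios were 2.92, 2.62 and 2.23, and the stages still did not overlap. Netrins and class 6 semaphorins had ratios of 2.12 and 2.01, and Sema7a, the class 7 semaphorin, had a ratio of 1.36 with overlapping stages. Among the receptors the ratios were 1.80 for EphA, 1.44 for EphB, 1.35 for plexin-A and 1.46 for plexin-B genes, and of 1.31, 1.05, 0.984 and 1.06 after the scaling, where the stages overlapped for all but EphA. The Robo sum was lower at E18.5 in every library, at 65.3, 56.1 and 56.5 TPM and then 40.3, 47.1 and 47.4 TPM. The class 4 semaphorins overlapped between the stages, with means of 302 TPM (SD 12.4, n = 3) and 267 TPM (SD 25.0, n = 3), with Sema4g and Sema4a lower and Sema4c and Sema4d higher, and after the scaling their sum was lower at E18.5 (ratio 0.639). All 63 genes together summed to 1378 TPM (SD 199, n = 3) at E16.5 and 1947 TPM (SD 92.5, n = 3) at E18.5, a ratio of 1.41 that became 1.03 after the scaling.

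**Figure D4:**
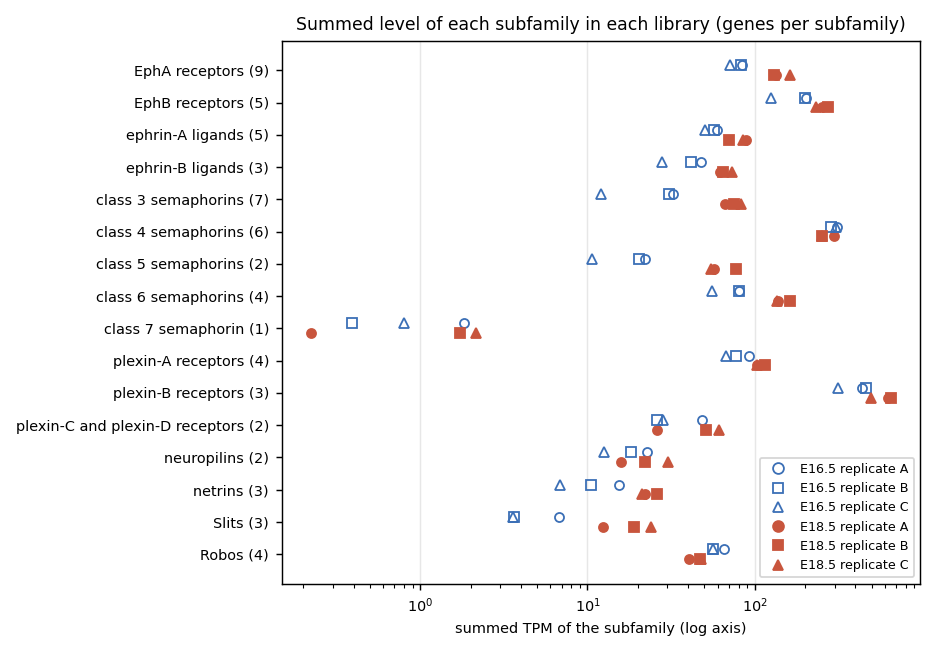
Summed TPM of each subfamily in each library on a log axis, with open blue symbols for E16.5 and filled red symbols for E18.5, and the number of genes in brackets. Slits, class 3 and class 5 semaphorins show the widest upward gaps, Robos stand lower at E18.5, and class 4 semaphorins overlap.

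The libraries of a stage differed in a shared way. At E16.5, 20 of the 22 risers were lowest in replicate C, as were 80.6% of all genes called higher and the cholangiocyte marker sum (751 TPM, against 1976 in A and 2494 in B). Of the 6 fallers, 5 stood in the order C, A, B from high to low, as did 60.8% of all genes called lower. At E18.5, 11 of the 22 risers were lowest in replicate A, beside 25.0% of all genes called higher, and 9 were lowest in replicate C, beside 62.8%. At E18.5 the mesenchymal, mesothelial, endothelial, erythroid, leukocyte and megakaryocyte sums were lowest in A, the hepatoblast sum in B, and the cholangiocyte, neural and glial, and pancreatic acinar sums in C. The endothelial sum ranged from 118 to 187 TPM at E16.5 and from 118 to 216 TPM at E18.5, with 2 of 10 markers called higher, and the neural and glial sum from 17.8 to 53.0 TPM and from 79.2 to 95.0 TPM, without overlap. None of the 4 tested neural and glial markers was called, and most of their sum was S100b, with 46.3, 45.2 and 14.4 TPM at E16.5 and 88.2, 74.8 and 70.2 TPM at E18.5 (log2 fold change 1.28, adjusted p = 0.0551, limma). The pancreatic acinar sum was 2388 TPM in E16.5 replicate A, 212 in B and 65.9 in C, and between 4.29 and 45.8 TPM in the E18.5 libraries. Erythroid markers ranged from 224 to 304 TPM and from 111 to 601 TPM with none of 9 called, and leukocyte markers from 87.2 to 133 TPM and from 113 to 167 TPM with 2 of 8 called higher.

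**Figure D5:**
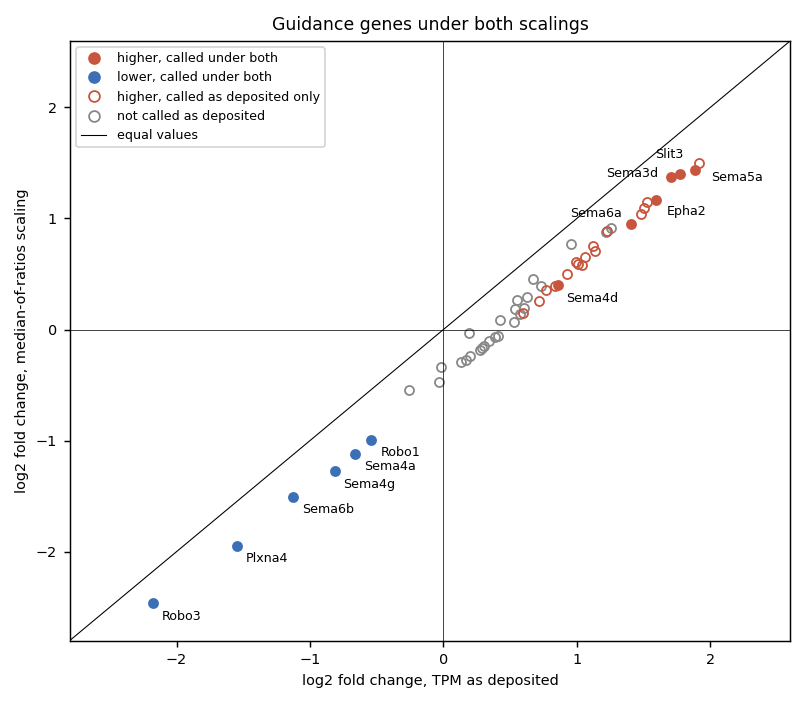
Log2 fold change of each tested guidance gene with the deposited TPM (horizontal axis) and after median-of-ratios scaling (vertical axis), with the line of equal values. Filled points are the 6 risers and 6 fallers called under both, open red points the 16 risers called with the deposited TPM only and grey points the genes not called; the members' median moves from 0.63 to 0.27.

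The partners of the guidance families outside the symbol rule were read from 3 lists of 59 genes. Of 49 tested, 22 were higher, 3 lower and 24 not called, with a median log2 fold change of 0.56, and after median-of-ratios scaling 9 were higher and 5 lower. Over all genes tested, 26.0% were higher and 5.22% lower, and 6.49% and 10.6% after the scaling, so that the counts of fallers lay close to their background in both cases. Among netrin receptors and repulsive guidance molecules, 5 of 6 tested were higher and 1 lower. Rgma, a neogenin ligand, rose from 4.73, 5.50 and 1.61 TPM to 15.7, 18.6 and 12.1 TPM (log2 fold change 1.82, adjusted p = 0.0164, limma). Draxin, a secreted protein that binds netrin receptors, fell from 4.28, 2.10 and 4.60 TPM to 0.0281 TPM, a listed 0 and 0.284 TPM (log2 fold change -2.04, adjusted p = 0.0116, limma), and 2 of its E18.5 libraries held no more than 3 reads, so the fitted change depends on the pseudocount. Neo1, which encodes the netrin receptor neogenin, was the most abundant gene of this list and rose from 33.1, 34.7 and 20.4 TPM to 66.9, 80.6 and 65.2 TPM (log2 fold change 1.27, adjusted p = 0.012, limma), and it was called in all 17 alternatives. Unc5b, another netrin receptor, went from 9.17, 8.83 and 6.11 TPM to 14.6, 12.9 and 26.3 TPM (log2 fold change 1.02, adjusted p = 0.0375, limma), a call lost with median-of-ratios scaling (adjusted p = 0.213) and without any 1 of the 6 libraries. Dcc and Unc5a stayed under 1 TPM in every library.

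Of 12 tested coreceptors and proteases, 3 were higher and none lower, beside 26.0% and 5.22% of all genes tested, so the count of risers was near its background. Flrt3, an UNC5 ligand, rose from 10.3, 9.67 and 5.00 TPM to 48.1, 50.7 and 53.1 TPM (log2 fold change 2.52, adjusted p = 0.00669, limma) and Vegfa, which also binds neuropilins, from 97.7, 106 and 66.7 TPM to 258, 241 and 210.2 TPM (log2 fold change 1.40, adjusted p = 0.0089, limma). Of 31 tested intracellular effectors, 14 were higher, 2 lower and 15 not called, beside the same shares of all genes. After median-of-ratios scaling 4 were higher and 4 lower, beside 6.49% and 10.6% of all genes. With the deposited TPM the fallers were Vav3, a guanine nucleotide exchange factor that acts after Eph receptors, from 25.8, 15.6 and 41.8 TPM to 1.70, 6.29 and 2.38 TPM (log2 fold change -2.72, adjusted p = 0.0121, limma), and Srgap3, a GTPase-activating protein that binds Robo receptors, from 22.4, 14.5 and 29.8 TPM to 3.99, 6.22 and 4.60 TPM (log2 fold change -1.93, adjusted p = 0.01, limma). Both, and Draxin, stood in the order C, A, B at E16.5, as did the megakaryocyte sums, and at E18.5 Vav3 and Srgap3 stood in their order B, C, A but Draxin in C, A, B. Draxin, Flrt3, Vegfa, Vav3 and Srgap3 kept their calls after the scaling and under every other alternative that could be fitted, and Rgma lost its call without E18.5 replicate A or E18.5 replicate B (the highest adjusted p over its alternatives was 0.0585).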

How the data were processed

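RNA of GFP+ cells was sequenced from 6 pools of 15 livers, 3 at E16.5 and 3 at E18.5. Per the labels and the study's methods, the authors used a stranded total RNA kit, checked reads with FastQC (version 0.11.7 in the submitters' processing notes), trimmed them, aligned them to GRCm38 using HISAT2 (2.1.0), obtained gene counts from HTSeq (0.5.4p3) and turned these into TPM. Which strand option HTSeq was run with is not given in the sources used here, and exons overlapped on the opposite strand made up 6.01% of Epha1, 7.27% of Sema4c, 10.5% of Efna4, 10.7% of Plxna1, 14.1% of Efna3 and 23.4% of Ntn5. The deposited table holds TPM for 52550 genes, and every sample column was used. Since TPM fixes the total of each library, a large change in a few abundant genes shifts all others.

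Symbols, lengths and positions came from GENCODE vM21, which held 52403 of the identifiers with the version dropped. To recover reads, TPM was multiplied by exon length and divided by what 1 read is worth, with 100% of 180057 values whole within 0.01. Recovered reads served for depth and for 1 alternative. They cover counting error only, and were not recovered for genes whose model changed between annotation releases.

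The E18.5 and E16.5 libraries were set against each other by limma (version 3.58.1, R 4.3.3; lmFit and a trended eBayes, two-sided) using log2(TPM + 1) of every gene that averaged 1 TPM or more, at a Benjamini-Hochberg adjusted p under 0.05, after the steps were tested on simulated data. Tables and promoter searches used Python 3.11.15. The guidance genes, the lists of 59 partner genes and 85 marker genes and the tests were chosen with earlier results of these data known. Values per library are given, within each role, for the 3 genes with the highest mean and for up to 3 called genes in each direction with the largest change and no overlap between stages. In each partner list the 2 called genes with the largest change are named. Alternatives numbered 17 and covered the pseudocount, the filter on low values, 3 other scalings, the variance model, gene length, a replicate block, voom on recovered reads and leaving out each of the 6 libraries.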

Additional observations from a re-analysis of the deposited data

How the results depend on the processing

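The calls were most sensitive to scaling and to single E18.5 libraries. All genes called went from 7000 to 4282 without a filter on low values, 3816 with median-of-ratios scaling and 3796 with quantile normalization. Guidance genes called higher went from 22 to 12, 6 and 8 in these settings, and partner genes called higher from 22 to 9 with median-of-ratios scaling and 12 with quantile normalization. Partner genes called lower went from 3 to 5 with median-of-ratios scaling. Guidance genes called lower were 3 with voom on recovered reads, where 43 guidance genes could be fitted. The share of calls that were higher was 83.3% with the deposited TPM, 38.0% with median-of-ratios scaling and 50.5% with quantile normalization. Leaving out 1 library in turn gave 1472 to 5686 called genes, 7 to 20 guidance genes higher and 1 to 6 lower, and 6 to 19 partner genes higher, and the lowest counts were those without E18.5 replicate A or E18.5 replicate B, except for fallers, lowest without E16.5 replicate A. Where a library was left out, the stage had 2 libraries, and the spread was pooled over both stages. The log2 fold change changed sign with median-of-ratios scaling for Efna1 (-0.064), Epha1 (-0.19), Plxnb1 (-0.054), Efna5 (-0.29), Plxna3 (-0.27), Nrp1 (-0.24), Sema4b (-0.17), Plxnd1 (-0.14), Plxna2 (-0.11) and Sema7a (-0.034), and with quantile normalization for Epha1 (-0.020), Ephb3 and the last 7 of these, none of them called. Of all values under the alternatives of the guidance genes chosen by the naming rule, which include Efna1, Epha1 and Plxnb1 but not the last 7 above, 356 kept their direction and side of the threshold, 95 lost the call, 10 gained one and 4 changed sign. Among these guidance genes, 8 lost the call without a filter on low values, 11 with median-of-ratios scaling and 10 with quantile normalization. With the replicate block 4 lost the call and 2 gained one. The cause of these differences was not tested beyond the construction of each alternative.

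With a replicate block over the letters A, B and C, 7314 genes were called, with 19 guidance genes higher and 6 lower, and 21 partner genes higher and 3 lower. The labels do not say that a letter marks a shared litter or day. The deviations of same-letter libraries from their stage means correlated at -0.042 for A, 0.081 for B and 0.14 for C, and E16.5 replicate A correlated best with E18.5 replicate B (0.084), so the letters were not taken to pair the libraries.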
